A study of Mus musculus with 4 samples.

Results

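Kcnq1ot1 and Airn are long non-coding RNAs that each run antisense through a protein-coding gene and silence neighbouring genes on the chromosome inherited from the father. The genes described here are these 2 lncRNAs with Kcnq1, Cdkn1c and Phlda2 on chromosome 7 and Igf2r, Slc22a2 and Slc22a3 on chromosome 17. They were taken by symbol from the RefSeq annotation of mm10, with 10 kb on each side, and make up 8 of the 49554 genes annotated on chromosomes 1 to 19 and X. Germline stem (GS) cells, which are spermatogonial stem cells of mouse testis kept in culture, were profiled for DNA methylation by whole-genome bisulfite sequencing. The cells were wild type and came from Green mice, an EGFP transgenic strain named C57BL/6 Tg14(act-EGFP)OsbY01, with a DBA/2 background. They were grown with FGF2, GDNF and fetal bovine serum for about 5 months (5M-GS) or 60 months (60M-GS), with 2 replicates of each age. Since the replicates of an age are pooled in 1 deposited table, their spread is unknown, and every test compares 2 pooled libraries rather than culture ages. The labels do not say whether the 2 ages are the same line or whether replicates are separate cultures. All intervals are 95% and cover counting error only. They treat every call as independent, which calls on the same read are not, so they can be too narrow.

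In an imprinted domain, a control region carries methylation from one parent only. At Kcnq1ot1 and Airn the control region is the CpG-rich start of the lncRNA itself. It is methylated on the chromosome from the mother, where the lncRNA is silent, and free of methylation on the chromosome from the father, where the lncRNA is made. Methylation of this kind is set in growing oocytes. Male germ cells erase the marks of both parents and set only those of the paternal kind, so such starts are known to be unmethylated in sperm and its precursors.

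The starts that carry the result are shown by their promoter sequences, from 250 bases before to 50 bases after the RefSeq start (build GRCm38.p6). Capitals mark the CpGs, which are the bases whose methylation was read. The lncRNA starts are shown because they lie at the control regions, and those of Slc22a2 and Slc22a3 because methylation there differed most between the tables among the 8 genes. They lie at chr7:143296498-143296797 (minus strand), chr17:12741061-12741360 (plus), chr17:12583939-12584238 (plus) and chr17:12507655-12507954 (minus), in the order printed.
Kcnq1ot1: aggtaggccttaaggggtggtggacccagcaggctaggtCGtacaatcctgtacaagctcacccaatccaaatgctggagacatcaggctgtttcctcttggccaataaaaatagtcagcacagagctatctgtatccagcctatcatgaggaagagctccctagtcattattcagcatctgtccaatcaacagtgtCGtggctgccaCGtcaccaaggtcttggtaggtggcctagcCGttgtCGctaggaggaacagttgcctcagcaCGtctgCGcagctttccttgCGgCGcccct
Airn: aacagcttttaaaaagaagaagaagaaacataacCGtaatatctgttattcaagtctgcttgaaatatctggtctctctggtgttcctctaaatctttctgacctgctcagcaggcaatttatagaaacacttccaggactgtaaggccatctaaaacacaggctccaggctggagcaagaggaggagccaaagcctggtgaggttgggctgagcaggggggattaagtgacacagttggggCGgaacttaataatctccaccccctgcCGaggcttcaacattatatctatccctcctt
Slc22a2: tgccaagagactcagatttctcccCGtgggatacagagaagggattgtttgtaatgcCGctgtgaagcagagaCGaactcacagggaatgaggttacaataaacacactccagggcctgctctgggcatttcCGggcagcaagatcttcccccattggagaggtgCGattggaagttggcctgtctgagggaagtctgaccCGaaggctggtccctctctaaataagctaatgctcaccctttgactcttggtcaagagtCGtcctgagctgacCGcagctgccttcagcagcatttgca
Slc22a3: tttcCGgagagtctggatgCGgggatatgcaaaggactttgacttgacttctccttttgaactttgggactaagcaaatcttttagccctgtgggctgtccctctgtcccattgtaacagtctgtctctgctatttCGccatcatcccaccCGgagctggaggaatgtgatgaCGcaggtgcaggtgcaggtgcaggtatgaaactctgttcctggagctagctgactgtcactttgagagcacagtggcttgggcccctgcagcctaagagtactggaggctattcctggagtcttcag

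These stretches hold 9, 3, 8 and 5 CpGs, against 26 in the same stretch of Phlda2 and 34 in that of Igf2r. The 9 CpGs printed for Kcnq1ot1 had 8 methylated calls of 361 (2.22%) in 5M-GS against 3 of 365 (0.822%) in 60M-GS, with no CpG above 5% in either table. Of the 3 CpGs of Airn, those at bases 243 and 270 had enough calls, with 1 methylated call of 29 in 5M-GS against 1 of 44 in 60M-GS. The 8 CpGs of Slc22a2 ranged from 20% to 44.4% in 5M-GS and from 84.3% to 97.7% in 60M-GS, so that the tables do not overlap at this start. In Slc22a3 the 4 CpGs at bases 20 to 174 had 0 methylated calls in 5M-GS and stood between 10.3% and 16% in 60M-GS, and the fifth, at base 5, stood at 15% and 35%. A pair of short motifs was searched on both strands of these stretches. TGCCGC (reverse complement GCGGCA), the hexamer of the imprint-protecting factor ZFP57, had 0 matches in Kcnq1ot1, Airn, Igf2r, Phlda2 and Slc22a3 and 1 in Slc22a2, at base 55. It was present in 11.6% of all 32851 promoter stretches in the table. The search did not cover most of the unmethylated sequence around the lncRNA starts. That sequence reached 2137 bp downstream of the Kcnq1ot1 start in 5M-GS and in 60M-GS. At Airn it reached 2149 bp downstream in 5M-GS and 2326 bp in 60M-GS. The 0 matches in Kcnq1ot1 and Airn therefore cannot tell whether the control regions hold the hexamer. CCAAT (reverse complement ATTGG), the box of the factor NF-Y, was added after the sequences had been seen. It matched 3 times in Kcnq1ot1, at bases 63, 103 and 184, 0 times in Airn, Igf2r and Slc22a3, once in Phlda2 and 2 times in Slc22a2. Of all stretches 37.4% held it and 3.37% held it 3 or more times.

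Depth was near equal between the tables over chromosome 7 and unequal over part of chromosome 17. There were 468121185 calls in all for 5M-GS and 471693518 for 60M-GS, with medians of 21 and 22 calls per CpG. In the chromosome 7 genes with flanks, 3470 of 3565 CpGs had at least 5 calls in both tables, with a median of 25 calls in each. In the chromosome 17 genes, 3763 of 3906 CpGs did, with medians of 26 in 5M-GS against 23 in 60M-GS, and no CpG of either domain exceeded 85 calls. The proximal part of chromosome 17, from its first measured window to 23.8 Mb, was covered less in 60M-GS. Calls per CpG in 60M-GS over 5M-GS, relative to the autosomal median, had a median of 0.859 over its 207 windows of 100 kb, the lowest at 0.808. The other 711 windows of the chromosome had a median of 1.00 (0.928 to 1.10). The 5 windows over the Igf2r domain stood between 0.846 and 0.874, and the 6 over the Kcnq1 domain between 0.956 and 1.01. The step lies 11.1 Mb beyond the Airn start, so the whole Igf2r domain is inside the segment of lower depth, as the plot of depth along the chromosome shows. Whether this shift has a part in the methylation differences of the chromosome 17 genes was not tested.

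**Figure D1:**
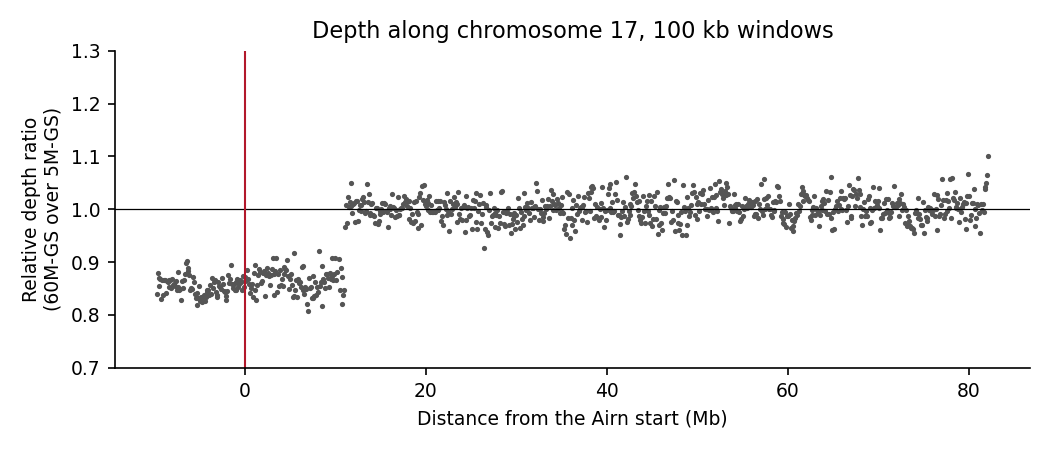
Depth of 60M-GS over 5M-GS (calls per CpG, relative to the autosomal median, vertical axis) in 100 kb windows of chromosome 17, by distance from the Airn start in Mb (horizontal axis; the red line is the start). Windows up to 11.1 Mb beyond the start have a median of 0.859, and all later ones sit between 0.928 and 1.10.

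The labelled germline origin was checked at other imprinted loci and at marker promoters. Stretches that carry methylation from the father were high: H19 had 93.5% in 5M-GS against 91.0% in 60M-GS, Meg3 93.5% and 92.1%, and Rasgrf1 90.9% and 92.1%, in the same order. Of 10 maternally methylated loci with a start window, 9 stood between 0.483% and 13.6% over both tables. The exception was Snrpn, at 41.5% and 55.6%, whose window at the outermost start held only 6 CpGs. Every window lies at the outermost start listed for its gene, and whether it covers the control region was not checked. Windows of 7 germ cell markers such as Ddx4 and Dazl stood between 0.272% and 6.74%. The 3 fibroblast markers were as low, between 0.546% and 2.52%, so promoter methylation does not tell these cell types apart, and no expression was measured. Of 4 Sertoli and Leydig markers tested, Insl3, a Leydig cell hormone, gained methylation from 10.4% to 92.0%. Amh, a Sertoli cell hormone, stood at 65.9% and 46.0% and was not called, with a difference of -19.9 points (-27.0 to -12.5). Sox9 (0.354% and 0.583%) and Cyp11a1 (3.43% and 5.81%) were low in both tables.

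Both lncRNA starts were unmethylated in both tables. A start window covers the 1000 bp before a start and the 500 bp after it. In the Kcnq1ot1 window (chromosome 7 from 143296047 to 143297547, inside the span of Kcnq1) the level was 9.50% of 1210 calls in 5M-GS (interval 7.98% to 11.3%) against 9.64% of 1235 calls in 60M-GS (8.11% to 11.4%). The difference was 0.13 points (-2.21 to 2.47; Fisher's exact test, Benjamini-Hochberg adjusted p = 1). To be called, a region needed an adjusted p under 0.05 and a difference of at least 20 points. In the Airn window (chromosome 17 from 12740311 to 12741811, inside the span of Igf2r) it was 8.10% of 951 calls (6.53% to 10.0%) and 7.89% of 760 calls (6.18% to 10.0%). That difference was -0.20 points (-2.76 to 2.45; Fisher's exact test, adjusted p = 1). Both intervals of the window differences include 0.

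What methylation these windows hold lies at their upstream edge. Of the 37 CpGs of the Kcnq1ot1 window, 33 were under 10% in both tables and 3 were at 50% or more in both. All 3 lay at least 636 bp upstream of the start. Of the 35 CpGs of the Airn window, 32 were under 10% in both tables, and the 2 at 50% or more lay at least 803 bp upstream. Downstream, each start opened into a CpG-dense run, that is, 20 or more CpGs, each no more than 50 bp from the next. The run that holds the Kcnq1ot1 start (chromosome 7 from 143296293 to 143296600, 22 CpGs) stood at 2.23% in 5M-GS against 0.80% in 60M-GS (difference -1.43 points, -2.80 to -0.17; Fisher's exact test, adjusted p = 0.214). Pairs of levels below keep this order. Further runs inside Kcnq1ot1, from 143295570 and from 143295052, stood at 2.03% and 0.344% and at 1.56% and 0.678%. The run at the Airn start (chromosome 17 from 12741303 to 12741656, 23 CpGs) stood at 1.69% and 0.375% (difference -1.32 points, -2.74 to -0.07; adjusted p = 0.245, Fisher's exact test), and the next one, from 12741733, at 0.603% and 0.312%. All 5 runs were lower in 60M-GS, by 0.291 to 1.69 points, and none was called. The run from 143295570 had the largest of these differences (Fisher's exact test, adjusted p = 0.0170). Of the other runs that hold a start, those of Cdkn1c (-0.70 points) and Igf2r (-0.30 points) were lower too. That of Phlda2 was higher (0.18 points). The runs that hold no start were named after their values had been seen.

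**Figure D2:**
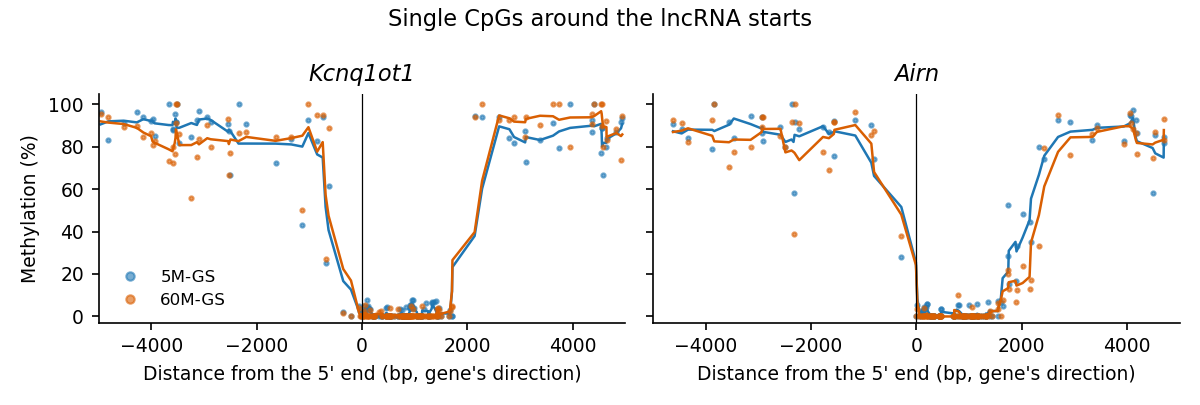
Methylation of single CpGs (points, percent) within 5 kb of the Kcnq1ot1 and Airn starts, by distance in the direction of the gene, with lines for the level over 5 neighbouring CpGs; 5M-GS is blue and 60M-GS orange. The low stretch reaches 636 bp upstream of the Kcnq1ot1 start in both tables, and 8 bp (5M-GS) and 286 bp (60M-GS) upstream of the Airn start. No CpG with enough calls lies between 8 and 286 bp upstream of Airn.

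The unmethylated stretch kept its edges between the tables at Kcnq1ot1. It was measured as the CpGs around the start whose level over 5 neighbouring CpGs stayed under 50%, a measure set after the profiles had been seen. At Kcnq1ot1 it covered the same 107 CpGs over 2774 bp in both tables, reaching 636 bp upstream and 2137 bp downstream, at 2.87% and 2.34%. Since the level runs over 5 CpGs, the outermost CpGs can themselves be methylated. At Kcnq1ot1 the one 636 bp upstream stood at 61.3% and 88.9%, and the one 2137 bp downstream at 94.4% and 94.1%. At Airn the stretch spanned 2158 bp with 88 CpGs in 5M-GS against 2613 bp with 91 CpGs in 60M-GS, at 4.18% and 3.03%. Here the far edge lay 2149 bp and 2326 bp downstream. The upstream edge lay 8 bp and 286 bp before the start, with no CpG of enough calls between. The CpG 286 bp upstream stood at 28.1% and 38.1%, so it was not itself lower in 60M-GS.

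The genes controlled by Kcnq1ot1 were unmethylated at their own starts as well. Kcnq1, a potassium channel subunit, stood at 11.5% and 9.44% over 52 CpGs (difference -2.02 points, interval -4.50 to 0.44). Cdkn1c, a cyclin-dependent kinase inhibitor that restrains growth, stood at 1.85% and 0.846% over 110 CpGs. Its difference of -1.01 points (-1.80 to -0.27; Fisher's exact test, adjusted p = 0.0480) is far under the limit of 20 points. Phlda2, a growth-limiting gene of the placenta, stood at 0.428% and 0.534% over 102 CpGs, and all 102 were under 10% in both tables. The Cdkn1c run, which spans 2586 bp from 143458892 and covers most of the gene, had 276 CpGs with enough calls and stood at 1.66% and 0.966%. The runs at Phlda2 (from 143502022) and Kcnq1 (from 143107029) stood at 0.273% and 0.454% and at 0.941% and 0.423%. The unmethylated stretch of Cdkn1c kept the same 295 CpGs over 3572 bp, that of Phlda2 spanned 3210 bp and 3224 bp, and that of Kcnq1 1834 bp and 2096 bp.

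The lncRNA start was then set beside these promoters within each table. By window, Cdkn1c minus Kcnq1ot1 was -7.65 points in 5M-GS (interval of the difference -9.51 to -5.96) and -8.79 points in 60M-GS (-10.6 to -7.18). Phlda2 minus Kcnq1ot1 was -9.08 points (-10.9 to -7.50) and -9.10 points (-10.9 to -7.53). For Kcnq1 the difference included 0 in both tables, at 1.95 points (-0.52 to 4.45) and -0.20 points (-2.53 to 2.13). By CpG-dense run, which leaves out the upstream edge of the window, the gaps were small: -0.56 points for Cdkn1c in 5M-GS (-1.91 to 0.36) and 0.17 in 60M-GS (-0.80 to 0.70). For Phlda2 they were -1.95 points (-3.27 to -1.04) and -0.35 points (-1.31 to 0.25), and for Kcnq1 -1.28 points (-2.65 to -0.24) and -0.38 points (-1.34 to 0.28). The change from 5M-GS to 60M-GS in the windows differed from that of Kcnq1ot1 by -1.14 points for Cdkn1c (-3.61 to 1.32), -0.03 for Phlda2 (-2.41 to 2.36) and -2.15 for Kcnq1 (-5.56 to 1.25), all including 0. By run, the change differed by 1.61 points for Phlda2 (0.29 to 3.05), which excludes 0. For Cdkn1c the run value was 0.73 points (-0.60 to 2.18) and for Kcnq1 0.91 points (-0.51 to 2.42), both including 0.

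The genes controlled by Airn fell into 2 patterns. Igf2r, the receptor that clears the growth factor IGF2, had an unmethylated start, as Airn did. The organic cation transporters Slc22a2 and Slc22a3, which Airn silences in the placenta, were more methylated in 60M-GS. The Igf2r window stood at 6.92% of 1936 calls and 7.52% of 1823 calls over 111 CpGs (difference 0.59 points, -1.06 to 2.26). Its run of 111 CpGs from 12769059 stood at 1.09% and 0.789%. Of the CpGs in the window, 4 were higher by at least 20 points in 60M-GS and 0 were lower by as much. The low stretch at Igf2r spanned 1854 bp with 123 CpGs in 5M-GS and 1721 bp with 121 CpGs in 60M-GS. Set beside Airn, the Igf2r window differed by -1.18 points in 5M-GS (-3.35 to 0.81) and -0.38 points in 60M-GS (-2.79 to 1.77), both including 0.

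Slc22a2 was the only one of the 8 windows to be called, as a gain. Its window (chromosome 17 from 12583189 to 12584689) held 29 CpGs and stood at 52.0% of 669 calls in 5M-GS (48.2% to 55.8%) against 88.8% of 582 calls in 60M-GS (86.0% to 91.1%). The gain was 36.8 points (32.1 to 41.2; Fisher's exact test, adjusted p = 3.92e-46). Of all 25087 start windows tested, 4.48% gained and 0.498% lost. Of the 29 CpGs, 21 were higher by at least 20 points in 60M-GS and 0 were lower by as much. The low stretch at this start, 453 bp with 13 CpGs at 31.4% in 5M-GS, was gone in 60M-GS, where the level over the 5 CpGs at the start was 90.3% against 27.6%. The gain exceeded the change at Airn by 37.0 points (31.6 to 42.1). Over a wider window, of 2000 bp before and 1000 bp after the start, it was 17.6 points, under the limit. Nor was it called once the calls had been divided by the number of CpGs, which leaves the mean calls per CpG as the sample size (Fisher's exact test, adjusted p = 0.408).

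Slc22a3 kept a low core, and tiles on both sides of it gained methylation. The window stood at 3.17% of 1295 calls and 14.0% of 1164 calls over 62 CpGs. This difference of 10.8 points (8.66 to 13.1; Fisher's exact test, adjusted p = 8.40e-22) was under the limit of 20 and was not called. The run of 65 CpGs inside the gene, from 12506919 to 12507526, stood at 0.840% and 2.51%, a difference of 1.67 points (0.70 to 2.76). The tiles on its sides changed more. The 1 kb tile upstream, from 12508001, went from 13.5% to 49.9%, with 13 of its 19 CpGs higher by at least 20 points, and the one downstream, from 12506001, from 7.92% to 38.5%, with 11 of 18. The low stretch shrank from 2837 bp with 102 CpGs to 1514 bp with 82 CpGs. Its upstream edge moved from 1100 to 463 bp before the start and its downstream edge from 1736 to 1050 bp after it. The window's change exceeded that of Airn by 11.0 points (7.61 to 14.5), and the run's by 2.99 points (1.41 to 4.78).

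**Figure D3:**
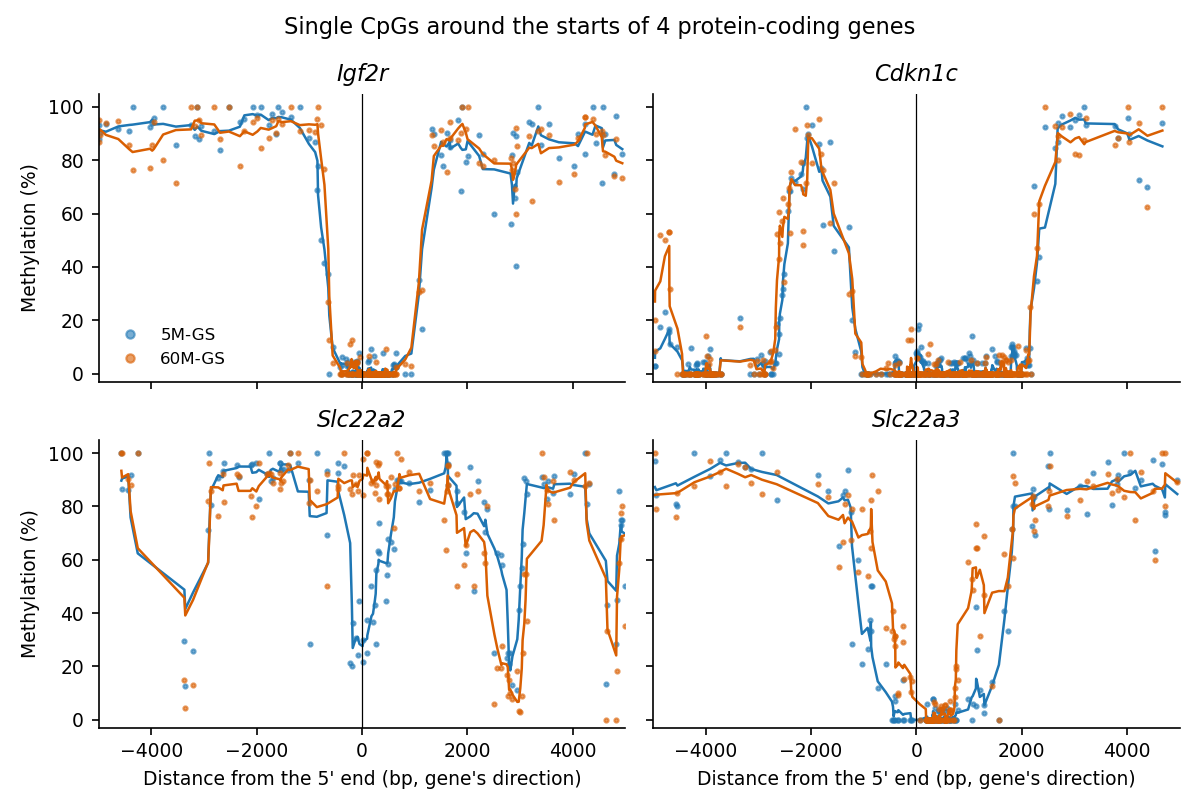
Methylation of single CpGs (points, percent) within 5 kb of the starts of Igf2r, Cdkn1c, Slc22a2 and Slc22a3, by distance in the direction of the gene, with lines over 5 neighbouring CpGs; 5M-GS is blue and 60M-GS orange. The lines lie close together at the starts of Igf2r and Cdkn1c and part in places upstream of them. The dip at Slc22a2 is absent in 60M-GS and that at Slc22a3 is narrower there.

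Ordered by level in 5M-GS, the windows ran from Phlda2 through Cdkn1c, Slc22a3, Igf2r, Airn, Kcnq1ot1 and Kcnq1 to Slc22a2. The intervals of Phlda2 (0.226% to 0.812%) and Cdkn1c (1.33% to 2.58%) did not overlap, and those of Cdkn1c and Slc22a3 (2.34% to 4.27%) did. The interval of Slc22a3 lay below that of Igf2r. Igf2r (5.87% to 8.14%), Airn (6.53% to 10.0%), Kcnq1ot1 and Kcnq1 (9.75% to 13.4%) each overlapped their neighbour in the order. In 60M-GS Slc22a3 (12.1% to 16.1%) stood above Igf2r, Airn, Kcnq1 and Kcnq1ot1, and its interval overlapped none of theirs. Slc22a2 was again the highest, and Phlda2 (0.306% to 0.931%) and Cdkn1c (0.521% to 1.37%) overlapped.

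**Figure D4:**
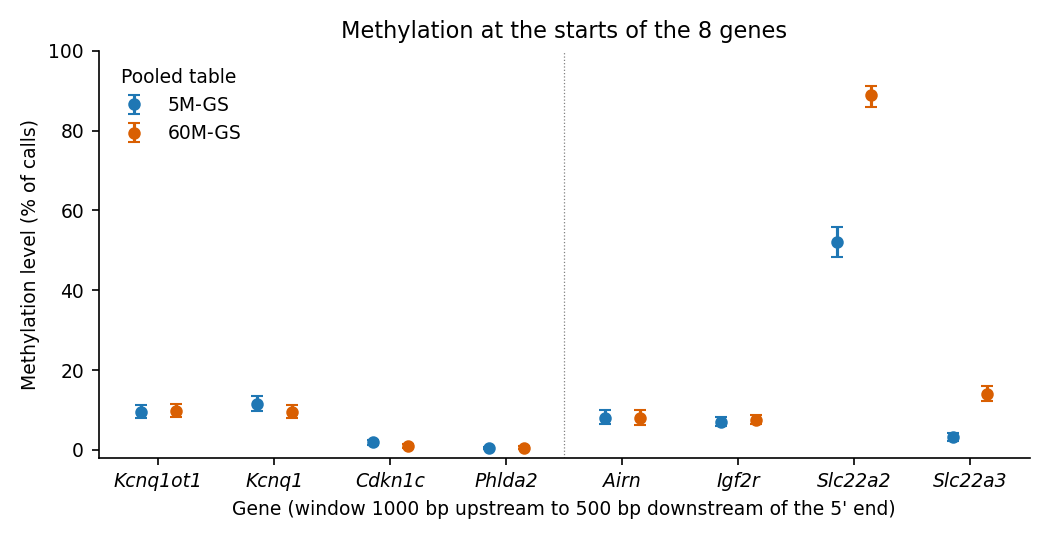
Methylation level (percent of calls, vertical axis) in the start window of each of the 8 genes (horizontal axis) in the pooled 5M-GS (blue) and 60M-GS (orange) tables, with 95% Wilson intervals as bars. All points are at or under 11.5% except Slc22a3 in 60M-GS at 14.0% and both points of Slc22a2.

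The levels were also set beside those of start windows at the other imprinted loci of this kind. These windows lie at outermost starts and need not cover the control regions. By the smallest summed difference in level over both tables, the maternally methylated loci most like Kcnq1ot1 were Inpp5f (12.5% and 13.6%), Mest (5.68% and 5.41%) and Nnat (5.53% and 5.21%). The summed differences were 6.96, 8.05 and 8.40 points. Those most like Airn were Mest, Nnat and Zrsr1 (5.08% and 3.13%), at 4.91, 5.25 and 7.78 points. Likeness was measured over 2 tables only. The least alike was Snrpn, at 41.5% and 55.6% (14.0 points higher in 60M-GS, 3.11 to 24.5, not called), with summed differences of 77.9 points from Kcnq1ot1 and 81.1 points from Airn. Of the 10 loci tested, 0 gained and 0 lost, beside 4.48% and 0.498% of all start windows. Their median difference was -0.29 points, against 0.14 over all windows.

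The 14 CpG-dense runs of the 8 genes and flanks held 0 gains and 0 losses (Fisher's exact test with Benjamini-Hochberg adjustment; 5 runs had an unadjusted p under 0.05 and 3 an adjusted p under 0.05, none of them by more than 1.69 points). Among all 23248 runs, 5.13% gained and 0.120% lost. The one run that was methylated lies inside Igf2r, upstream of the Airn start, from 12687866 to 12688323, at 92.9% and 92.0%. The other 13 were between 0.273% and 2.51% in both tables.

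The bodies of the genes were mostly methylated, with the start windows of all 8 genes left out. These windows end 500 bp after a start, so CpG-dense runs beyond that point still count towards the level of a body. Kcnq1 stood at 76.9% and 75.8% before the stretch it shares with Kcnq1ot1, at 77.6% and 77.8% within it, and at 87.7% and 87.4% after it. The shared stretch holds the low runs from 143295570 (2.03% and 0.344%) and from 143295052 (1.56% and 0.678%). Igf2r outside its overlap with Airn stood at 91.4% and 90.2%, and Airn outside its overlap with Igf2r at 79.0% and 79.3%. The stretch shared by Airn and Igf2r was the lowest, at 59.6% and 57.9%. It includes most of the run from 12741733, at 0.603% and 0.312%. A tile centred 9189 bp beyond the Airn start, from 12750001, with 11 CpGs at 0.833% and 0.651%, lies in it too. Inside Kcnq1, centred 47623 bp beyond its start, a tile from 143154001 with 39 CpGs stood at 1.84% and 0.510%. Both tiles were picked after their values had been seen. Over the span of Slc22a2 outside the window the levels were 83.0% and 78.5% (difference -4.46 points, -5.63 to -3.29), opposite in sign to its start. The span of Slc22a3 stood at 83.4% and 82.3%.

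Within the gene spans and flanks, 661 tiles of 1 kb were tested. In the Kcnq1 domain 3 of 322 tiles gained and 3 lost, and in the Igf2r domain 8 of 339 gained and 2 lost. These shares, 0.932% and 2.36% for gains and 0.932% and 0.590% for losses, stand beside 3.48% gained and 0.475% lost over all 1689849 tiles. A difference between the domains was not tested, and depth differs between them as given above. The median difference was -0.64 points in the Kcnq1 domain and -1.73 in the Igf2r domain, against -0.45 over all tiles, and 615 of the 661 tiles moved by less than 10 points.

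The largest gain lay inside Kcnq1, 79454 bp upstream of the Kcnq1ot1 start (chromosome 7 from 143376001 to 143377000). Its 21 CpGs stood at 23.2% of 462 calls in 5M-GS against 85.6% of 535 calls in 60M-GS, a gain of 62.4 points (57.3 to 67.0; Fisher's exact test, adjusted p = 5.95e-91). All 21 were higher in 60M-GS, and the median CpG went from 5.26% to 89.7%. The next 2 lay in the part of Airn that overlaps Mas1, a G protein-coupled receptor gene. The tile from 12854001 went from 4.03% to 49.1% (gain 45.0 points, 40.2 to 49.7), with all 19 CpGs higher, and that from 12846001 from 39.9% to 80.7%, with 18 of 19 higher. The other 2 of the 5 largest were the tile upstream of Slc22a3 and one in the flank beyond the far end of Slc22a2, from 12636001 (3.31% and 35.9%). When the calls were divided by the number of CpGs, the gains in Kcnq1 and from 12854001 were still called, out of 11, and 0 losses were. The share of all tiles that gained by that test was 0.498%, and 0.0155% lost.

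Of the 5 losses, 2 lay inside Kcnq1, 12124 and 17124 bp from its start. The tile from 143119001 fell from 60.5% of 210 calls to 20.3% of 177, with all 9 CpGs lower. The tile from 143124001 fell from 60.4% to 21.8%, with all 14 CpGs lower. A further tile in Kcnq1, from 143416001, fell from 91.8% to 70%. The others lay inside Slc22a2, from 12599001 (35.6% and 8.50%) and from 12587001 (68.1% and 44.9%), the latter 2812 bp beyond a start that gained. Exons and introns were not told apart for any tile.

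**Figure D5:**
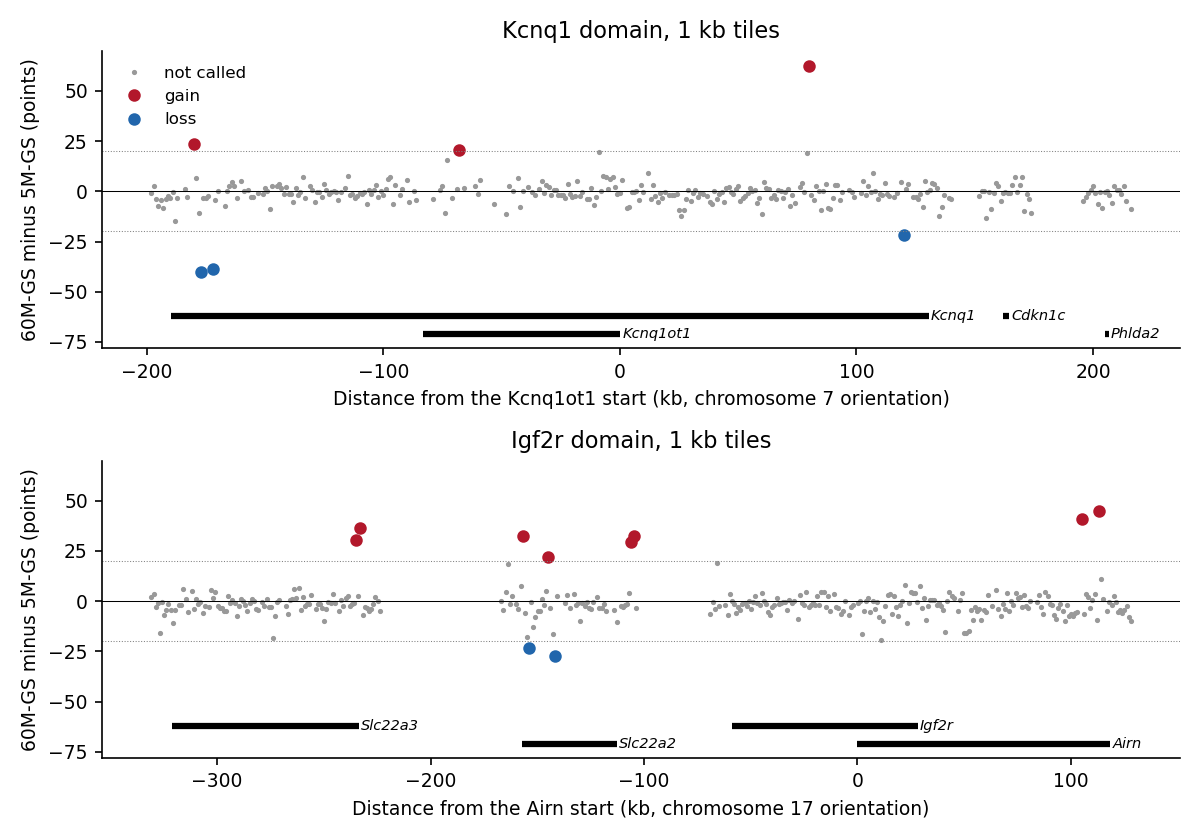
Difference in methylation (60M-GS minus 5M-GS, percentage points, vertical axis) of each 1 kb tile in the Kcnq1 domain (top) and Igf2r domain (bottom), by distance from the lncRNA start in kb; red tiles gained and blue tiles lost by at least 20 points (dotted lines), and black bars are gene spans. Most tiles sit near 0, and those around both lncRNA starts are not called.

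Genes next to the 8 were described from 2 lists. Of those tested 0 gained and 0 lost, beside 4.48% and 0.498% of all start windows, so these counts are near the background. Of 14 neighbours of the Kcnq1 domain 11 were tested, with a median difference of -0.20 points. The transcription factor gene Ascl2 stood at 5.76% and 9.65%, the highest difference of the 11. Slc22a18, another imprinted transporter, had the lowest, with 7 CpGs at 41.5% and 31.9% (difference -9.65 points, -20.2 to 1.16). Of 10 neighbours of the Igf2r domain 9 were tested, with a median of -0.14 points. Ascl2 and Slc22a18 were named after their values had been seen.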

How the data were processed

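Libraries for bisulfite sequencing of 2 replicates each of 5M-GS and 60M-GS used adaptors added after the bisulfite step (PBAT), per the labels' protocols. Per the submitters' processing notes, Bismark 0.10.0 and mm10 were used. For each CpG the deposited tables give the count of methylated and the count of unmethylated calls, without normalization by the authors. The deposited percent column is the authors' share of methylated calls and was not used further. Each of the 2 tables pools both replicates of a culture age. How duplicates, filters and strands were handled is not given in the sources used here.

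Levels are methylated calls as a percent of all calls, summed over the CpGs of a region that had 5 or more calls in each table. Fisher's exact test (two-sided) was run on every region of 4 or more such CpGs in the genome, with Benjamini-Hochberg adjustment within each kind of region. A call needed an adjusted p under 0.05 and a difference of 20 points or more. Intervals are 95% Wilson intervals for levels, and Newcombe's for differences; the difference of 2 changes combines their intervals in the same way. Starts came from the RefSeq promoter table (GRCm38.p6, the outermost start listed there for a gene). Those of 13 genes, among them Kcnq1 and Cdkn1c, came from the gene's outermost end with a strand written by hand. The listed start of Phlda2, 143502524, lies inside its minus-strand span, whose 5' end is at 143503145. Named were all 8 genes, their CpG-dense runs (all, or beyond 10 those at starts and those called), the 5 called tiles that gained most and the 5 that lost most, called neighbours, and the 3 control loci most alike. The values of 1 neighbouring gene are not reported here. The members and lists were chosen with earlier results of these data known. The tests were tried on simulated data with 200 changed regions of each kind. Simulated calls were drawn independently of each other, so they cannot give the rate of false calls in these data. Alternatives changed the coverage minimum, depth limit, weighting, window, run and tile sizes, and the number of observations. The analysis used Python 3.11.15, numpy 2.4.6, scipy 1.17.1 and numba 0.67.0.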

Additional observations from a re-analysis of the deposited data

How the results depend on the processing

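No paired analysis was possible because each table pools both replicates of its culture age, and for the same reason no replicate could be left out. The Kcnq1ot1 difference, 0.13 points, turned negative in the wider window, 2000 bp before and 1000 bp after the start (-0.82 points), with 500 bp on both sides (-1.04 points) and over the CpG-dense run that holds the start (-1.43 points), the last chosen after seeing the data. It was not called in any of these, nor was the Airn difference, which ranged from -1.32 to -0.20 points. Igf2r turned to -0.34 points in the wider and -0.19 points in the narrower window, and Phlda2 to -1.20 points in the wider one. The number of start windows called fell from 1 to 0 both with the wider window and with divided calls. With divided calls 2 tiles gained and 0 lost. Tiles of 500 bp gave 20 gains and 10 losses, and tiles of 2 kb gave 6 gains. Runs of at least 10 CpGs gave 2 calls, and so did gaps of at most 100 bp, none of them at a start. A minimum of 10 calls, a minimum of 1 call, leaving out CpGs of over 100 calls (there were 0 in these domains) and the mean of per-CpG levels kept every count of calls within 1.5 times. With the mean of per-CpG levels, the loss from 12587001 was -19.4 points, under the limit. The gain from 12508001 was 28.7 points by that mean, against 36.4. At the lncRNA starts, depth would limit a difference to about the width of the intervals given only if calls were independent. The spread between replicates cannot be judged from pooled tables.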
